A study of Homo sapiens with 4 samples.

Results

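The 7 genes of the aryl hydrocarbon receptor pathway described here, AHR, ARNT, AHRR, TIPARP, CYP1A1, CYP1B1 and ALDH3A1, were followed in pancreatic cancer cells treated with cannabichromene (CBC), a cannabinoid of the hemp plant. They were picked by symbol, matched to the Ensembl identifiers of the count table, and all 7 were found among its 58233 genes. MIA PaCa-2 and PANC-1, established human pancreatic cancer cell lines labelled WT, received PBS or CBC for 24 h, and polyA RNA was sequenced. CBC was given at 35 µM to MIA PaCa-2 and at 30 µM to PANC-1. Each of the 4 conditions had 1 library, so a difference within a line has no replicate check, and the doses of the lines differed. The stock of CBC was in acetonitrile while the labels name PBS for the controls. The paper calls them vehicle controls without naming the vehicle. If the controls lacked acetonitrile, CBC and its solvent cannot be told apart.

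The aryl hydrocarbon receptor (AHR) is a ligand-activated transcription factor of the bHLH-PAS family that waits in the cytoplasm bound to HSP90 and its partners. Once a ligand such as a dioxin, a polycyclic aromatic hydrocarbon or a tryptophan metabolite binds, the receptor moves to the nucleus, pairs with ARNT and binds xenobiotic response elements, whose central letters are GCGTG. CYP1A1, CYP1B1 and ALDH3A1 are classical targets that oxidise foreign compounds or aldehydes, and AHRR and TIPARP are targets that act back on the receptor as its repressor and as a mono-ADP-ribosyltransferase.

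The libraries held 21742775 to 27903667 counts on genes, and a count of 0 allowed a level of up to 0.11 to 0.135 CPM (counts scaled to library size), taking 3 counts as the limit. Counting limits and intervals given here cover counting error only. The keratin genes KRT8, KRT18 and KRT19 were at 161 to 1800 CPM in every library, whereas the epithelial genes EPCAM and CDH1 had at most 1 count in MIA PaCa-2. The 3 acinar markers summed to at most 0.044 CPM, both endocrine markers were at 0, and the 3 leukocyte markers summed to 0.045 to 0.805 CPM. Several marker genes moved with CBC. The summed level of the 3 fibroblast markers was 368 CPM with PBS and 95.5 CPM with CBC in MIA PaCa-2, through COL1A2, and 134 against 46.4 CPM in PANC-1, through COL1A1, while DCN was at 0 throughout. The 6 epithelial markers summed to 3480 CPM with PBS and 2550 CPM with CBC in MIA PaCa-2, and to 2050 and 1210 CPM in PANC-1. Among them KRT7 had 2 and 52 counts in MIA PaCa-2. Of both endothelial markers, PECAM1 was at 0 and CDH5 had 49 counts with PBS and 7 with CBC in MIA PaCa-2, and 0 and 1 in PANC-1. The mesenchymal markers VIM and CDH2 summed to 3250 to 4370 CPM, nearly all of it VIM. CDH2 had 0 counts in MIA PaCa-2, and 31.9 CPM with PBS and 18.6 CPM with CBC in PANC-1. The part of these shifts in the values below was not tested. In such bulk RNA, fewer cells that carry a transcript and less of it per cell cannot be told apart.

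Promoter windows from RefSeq (GRCh38.p14), 250 bases before to 50 after a start site, were matched for 5 of the 7 genes and gave 8 windows. CYP1B1 and ALDH3A1 had no entry. The 7-letter motif TNGCGTG, a longer form of the xenobiotic response element, was searched on both strands and occurred once, in the first AHRR window, 32 bases before its start site. Over 35116 windows of the same length, 5.51% held this motif. Its core GCGTG, which lies inside the longer motif, occurred 7 times in all and in 5 of the 8 windows, while 36.5% of all windows held at least 1. The first of 3 TIPARP windows held 2 cores, a number that 12.7% of all windows reached, while its other two held none. One core each lay in the windows of AHR, 37 bases into the transcript, and CYP1A1, and 2 lay in the second AHRR window. The ARNT window held no core, but was the one window with TGACNNNGC, the core of the antioxidant response element, which 13.3% of all windows held. Upstream stretches of the repressor, the ribosyltransferase and the classical P450 target are shown because TIPARP and AHRR were the better-counted genes that moved in MIA PaCa-2 and CYP1A1 is the usual readout of the receptor. Capitals mark GCGTG, or CACGC where the core is on the other strand.
AHRR, chr5:321614-321713, plus strand: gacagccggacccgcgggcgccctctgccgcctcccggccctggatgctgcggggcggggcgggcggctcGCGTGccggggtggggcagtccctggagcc
TIPARP, chr3:156674370-156674469, plus strand: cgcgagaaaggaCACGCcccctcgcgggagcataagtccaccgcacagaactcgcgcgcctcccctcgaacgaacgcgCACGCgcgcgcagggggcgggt
CYP1A1, chr15:74725529-74725628, minus strand: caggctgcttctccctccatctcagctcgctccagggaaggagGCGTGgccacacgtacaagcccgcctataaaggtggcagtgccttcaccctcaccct
The AHRR and CYP1A1 stretches run from 100 bases before the start site to its edge, and that of TIPARP from 220 to 121 bases before it. These matches describe letters and were not tested as binding sites. Bases outside the windows were not searched, so a gene without a motif here may hold one farther away.

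CBC was first compared with PBS in each line. In MIA PaCa-2, AHR and TIPARP were more than 2-fold higher with CBC and AHRR lay just under 2-fold. In PANC-1, none of these 3 was past 2-fold, CYP1B1 was almost 2-fold lower, and CYP1A1 was more than 2-fold lower on few counts. A gene was read for the 2-fold threshold if it reached 1 CPM in 1 of the line's 2 libraries, which 5 members did in MIA PaCa-2 and 6 did in PANC-1. In MIA PaCa-2, 2 members were higher past 2-fold and 0 lower, against 11.5% of 14001 genes higher and 8.97% lower. For PANC-1 the members gave 0 higher and 1 lower, against 7.71% of 14091 genes higher and 7.03% lower. The median log2 fold change of the members read was 0.99 in MIA PaCa-2 and 0.15 in PANC-1, beside -0.01 and 0.02 over all genes read. With a handful of genes, these counts do not set the members apart from other genes.

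**Figure D1:**
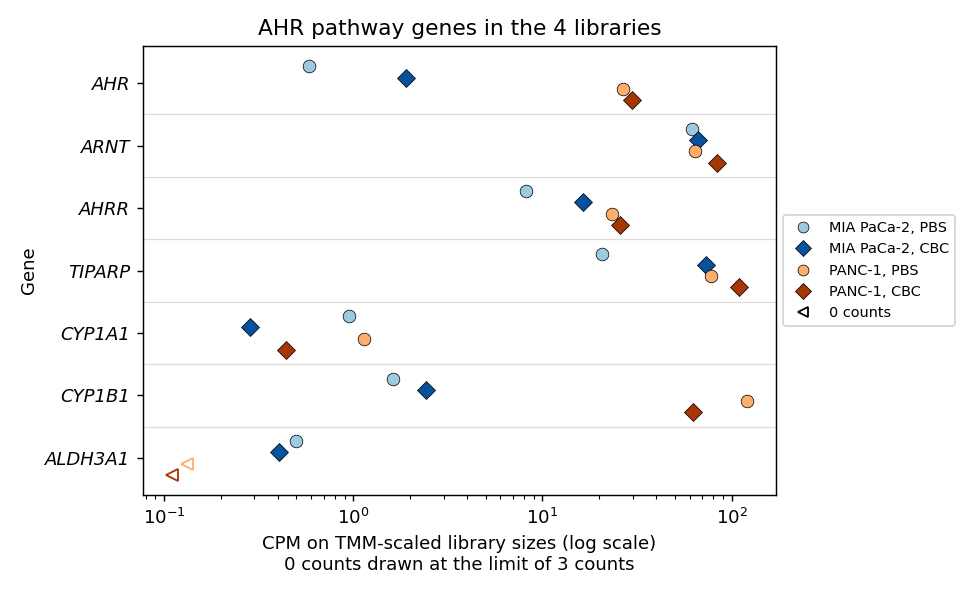
Level of each of the 7 genes in CPM on a log axis, with 1 point per library (circles PBS, diamonds CBC, blue MIA PaCa-2, orange PANC-1) and open triangles for 0 counts. ARNT lies within 61.4 to 84.2 CPM in the 4 libraries, whereas AHR and CYP1B1 are under 3 CPM in MIA PaCa-2 and above 20 CPM in PANC-1.

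TIPARP (ENSG00000163659, chr3:156673235-156706770, plus strand, GRCh38), the mono-ADP-ribosyltransferase that modifies the receptor and lowers its activity, had the largest change among the members past the filter in MIA PaCa-2. Its level was 20.6 CPM with PBS and 73.5 CPM with CBC in MIA PaCa-2, and 77.7 and 109 CPM in PANC-1. The PBS library of MIA PaCa-2 was the low one, and with CBC that line came close to untreated PANC-1. The log2 fold change was 1.83 in MIA PaCa-2 (95% counting interval 1.68 to 1.98) and 0.48 in PANC-1 (0.40 to 0.57), so the interval lay wholly past 2-fold in MIA PaCa-2 and wholly under it in PANC-1. The antisense gene TIPARP-AS1, which overlaps its gene body but none of its exons, had 3 to 30 counts.

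AHR itself (ENSG00000106546, chr7:16916359-17346152, plus strand) was scarce in MIA PaCa-2. There it had 13 counts with PBS and 47 with CBC, which gave 0.585 and 1.9 CPM, against 606 and 812 counts, or 26.7 and 29.7 CPM, in PANC-1. Both PANC-1 libraries were far above both MIA PaCa-2 libraries. The log2 fold change with CBC was 1.57 in MIA PaCa-2, with an interval of 0.79 to 2.71 that also covers changes under 2-fold, and 0.16 in PANC-1 (0.00 to 0.31 after rounding). AHR shares 2373 exon bases with a same-strand protein-coding gene, ENSG00000283321, which had 0 counts in every library, and 492 with the antisense ENSG00000237773, which had 0, 3, 5 and 14 counts. How reads over shared exons were treated is not given in the sources used here, so the 0 counts do not show that the AHR count is complete.

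AHRR (ENSG00000063438, chr5:321714-438291, plus strand), the repressor that competes with the receptor for ARNT, had 8.23 CPM with PBS and 16.4 CPM with CBC in MIA PaCa-2, and 23.3 and 25.7 CPM in PANC-1. The gap between treatments was wide in MIA PaCa-2 and narrow in PANC-1. Its log2 fold change was 0.99 in MIA PaCa-2 (0.74 to 1.26), at the edge of the 2-fold threshold, and 0.14 in PANC-1, where the interval of -0.02 to 0.31 includes no change. The read-through gene PDCD6-AHRR shares 5561 exon bases with AHRR in GENCODE and was not in the count table, so its reads may be counted under AHRR.

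ARNT (ENSG00000143437, chr1:150809713-150876708, minus strand), the dimer partner that AHR shares with the hypoxia-inducible factors, had the smallest ratio of highest to lowest level over the 4 libraries among the members. It had 61.4 and 66.7 CPM in MIA PaCa-2 and 64.1 and 84.2 CPM in PANC-1. The log2 fold change was 0.12 in MIA PaCa-2 (0.02 to 0.22) and 0.39 in PANC-1 (0.30 to 0.49), the latter larger than the changes of AHR and AHRR in that line. Together with TIPARP it was higher with CBC in both lines on at least 459 counts in every library.

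CYP1A1 (ENSG00000140465, chr15:74719542-74725536, minus strand), the P450 most often read as a sign of an active receptor, was near the detection limit and lower with CBC in both lines. It had 21 counts with PBS and 7 with CBC in MIA PaCa-2, and 26 and 12 in PANC-1, or 0.944, 0.283, 1.14 and 0.439 CPM. Both CBC libraries lay under both PBS libraries. The log2 fold change was -1.49 in MIA PaCa-2 (-3.22 to -0.45), where the gene stayed under 1 CPM and so outside the 2-fold count, and -1.23 in PANC-1 (-2.50 to -0.34). Both intervals leave out no change yet reach to well under 2-fold.

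CYP1B1 (ENSG00000138061, chr2:38066973-38109902, minus strand), a P450 of oestrogens and polycyclic hydrocarbons, had 36 and 60 counts in MIA PaCa-2 and 2751 and 1707 in PANC-1, or 1.62, 2.43, 121 and 62.5 CPM. The CBC library was the higher one in MIA PaCa-2 and the lower one in PANC-1. Its log2 fold change was 0.56 in MIA PaCa-2, where the interval of -0.04 to 1.22 includes no change, and -0.95 in PANC-1 (-1.04 to -0.87). Its exons overlap 678 bases of the antisense gene CYP1B1-AS1, which had 2, 2, 22 and 24 counts, and 96 bases of RMDN2, also on the other strand, with 40 to 59. Whether HTSeq counted by strand is not given in the sources used here, and without it reads of such pairs could be mixed.

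ALDH3A1 (ENSG00000108602, chr17:19737984-19748943, minus strand), an aldehyde dehydrogenase, had 11 and 10 counts in MIA PaCa-2 and 0 in both PANC-1 libraries. The change in MIA PaCa-2, -0.25 on the log2 scale (-1.68 to 1.08), gives no direction, and in PANC-1 the counts were too low for one.

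**Figure D2:**
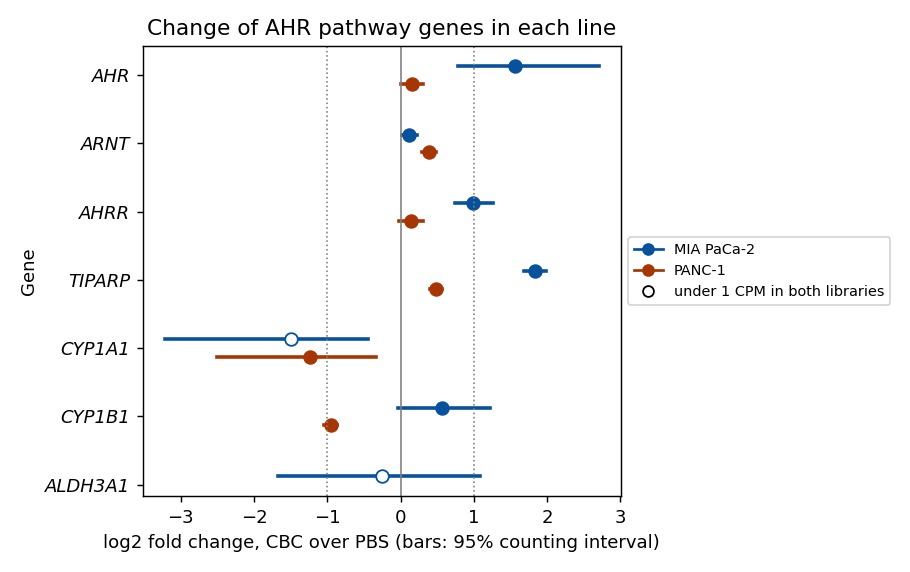
Log2 fold change of CBC over PBS for each gene in MIA PaCa-2 (blue) and PANC-1 (brown), with bars for the 95% counting interval, dotted lines at 2-fold and open points for genes under 1 CPM in both libraries of the line. TIPARP in MIA PaCa-2 is the one bar wholly past 2-fold, and the bars of CYP1A1 lie left of 0 in both lines.

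A direction was read where 1 library of a line had at least 10 counts and the counting interval left out no change. By this rule, 4 members were higher and 1 was lower with CBC in MIA PaCa-2, and in PANC-1 the numbers were 3 and 2. The same rule gave a direction to most genes at this depth. Of 16317 genes with at least 10 counts in MIA PaCa-2, 35% were higher and 35.1% lower, and of 16387 in PANC-1, 34.3% were higher and 32.4% lower, so having a direction does not set the members apart. AHR, ARNT and TIPARP were higher and CYP1A1 lower in both lines by this rule. The intervals of AHR in PANC-1 and ARNT in MIA PaCa-2 began near no change, at 0.00 after rounding and at 0.02. The log2 fold change of AHR in PANC-1, 0.16, ranged from 0.13 to 0.23 under other scalings. The direction rule was not rerun with these, so those directions may depend on the scaling. The counting intervals of the lines did not overlap for AHR, ARNT, AHRR, TIPARP and CYP1B1. The share of all genes with intervals apart was not counted, so this does not set the members apart. With 1 library per condition, the difference between the lines in their change with CBC was not tested.

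Across both lines, with the line as a block and each line as the replicate, edgeR's quasi-likelihood test with Benjamini-Hochberg adjustment over 16381 genes passed 0 of the 7 members. It called 2.26% of genes higher and 2.45% lower with CBC. At an unadjusted edgeR p under 0.05 there were 2 members, TIPARP and CYP1A1, beside 3428 of the 16381 genes. DESeq2 called 0 members and had 1 at an unadjusted p under 0.05, beside 2853 genes of the table. These counts do not set the members apart from other genes. TIPARP had a log2 fold change of 1.16 (SE 0.34) with an adjusted p of 0.103 by edgeR and 0.074 by DESeq2, and was higher in both lines. CYP1A1 had -1.53 (SE 0.63) with an edgeR adjusted p of 0.222, lower in both lines. DESeq2 gave it no adjusted p and an unadjusted p of 0.245. Its unadjusted edgeR p was 0.0437, and 0.0511 with library totals. The fit had AHR at 0.73 (SE 0.42), AHRR at 0.57 (SE 0.32) and ARNT at 0.26 (SE 0.21), with edgeR adjusted p of 0.374, 0.36 and 0.534. CYP1B1, whose values ran opposite ways in the lines, was at -0.34 (SE 0.38) with an edgeR adjusted p of 0.663, and ALDH3A1 had an adjusted p of 0.921.

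The lines themselves were compared in the same fit, with treatment as the block. Here 5 of the 7 members passed the test, against 46.7% of all genes. CYP1B1 was higher in PANC-1 by 5.36 on the log2 scale (SE 0.42) and AHR by 4.56 (SE 0.46), with edgeR adjusted p of 5.95e-05 and 0.000216. TIPARP at 1.17 (SE 0.34) and AHRR at 1.01 (SE 0.32) were also higher in PANC-1, with edgeR adjusted p of 0.0233 and 0.0351. ALDH3A1 was lower in PANC-1 (edgeR adjusted p = 0.0132). With 0 counts in PANC-1 the fold has no upper limit, and the 95% counting interval reaches down to 2.57-fold higher in MIA PaCa-2 with PBS and 2.48-fold with CBC. Taken at face value, the MIA PaCa-2 levels were 3.75 and 3.68 times the limit of 3 counts per PANC-1 library. DESeq2 gave ALDH3A1 no adjusted p and an unadjusted p of 0.104, against an unadjusted edgeR p of 0.00423. It called 4 members between the lines. ARNT at 0.14 (SE 0.21) and CYP1A1 at 0.37 (SE 0.63) did not pass, with edgeR adjusted p of 0.622 and 0.66.

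The gap between lines was narrower with CBC than with PBS for 4 genes. AHR was 40.1-fold higher in PANC-1 with PBS and 15.0-fold higher with CBC, and CYP1B1 was 71.2-fold and 24.9-fold higher. TIPARP was 3.75-fold higher in PANC-1 with PBS and 1.48-fold higher with CBC, and AHRR 2.81-fold and 1.56-fold. For these genes the counting intervals of the 2 gaps were apart, but the share of all genes with gaps apart was not counted. The change of the gap is the same contrast as the difference between the lines in their change with CBC. It differs from the line comparison of the fit and was not tested. The fit has no term for this change of the gap, which therefore enters the residual spread behind its SE and p-values. ARNT went the other way, from 1.04-fold with PBS (95% counting interval of the log2 ratio -0.05 to 0.17) to 1.26-fold with CBC (0.24 to 0.43).

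Levels of different genes were set side by side per length, as TPM (transcript counts scaled to length and library) over the union of exons. In MIA PaCa-2 with PBS, ARNT led with 35.9 TPM, followed by TIPARP with 16.2, AHRR with 3.27, CYP1A1 with 1.06, CYP1B1 with 1.01, ALDH3A1 with 0.481 and AHR with 0.274. With CBC, TIPARP led this line with 63.4 TPM, ARNT came next with 42.9, and CYP1A1 was last with 0.349. In PANC-1 with PBS, CYP1B1 led with 75.8 TPM, ahead of TIPARP with 61.1 and ARNT with 37.5. With CBC, TIPARP led there too, with 96.7 TPM, and CYP1B1 was the third with 44.3. With 1 library each, the order of neighbours such as CYP1A1 and CYP1B1 in MIA PaCa-2 with PBS, at 21 and 36 counts, has no replicate check.

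The balance of the receptor and its partners differed between the lines. Per length, ARNT was 131 times AHR in MIA PaCa-2 with PBS and 43.9 times with CBC, and 3.0 and 3.54 times in PANC-1. AHRR was 12.0 and 7.34 times AHR in MIA PaCa-2, and 0.741 and 0.733 times in PANC-1. The PANC-1 ratios of AHRR to AHR turn to 1.07 and 1.06 when the longest transcript gives the length, so the order of these genes in that line depends on the length used. CYP1B1 was 59.0 and 79.4 times CYP1A1 in PANC-1 and 0.956 and 4.78 times in MIA PaCa-2, the last on 7 counts of CYP1A1.

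**Figure D3:**
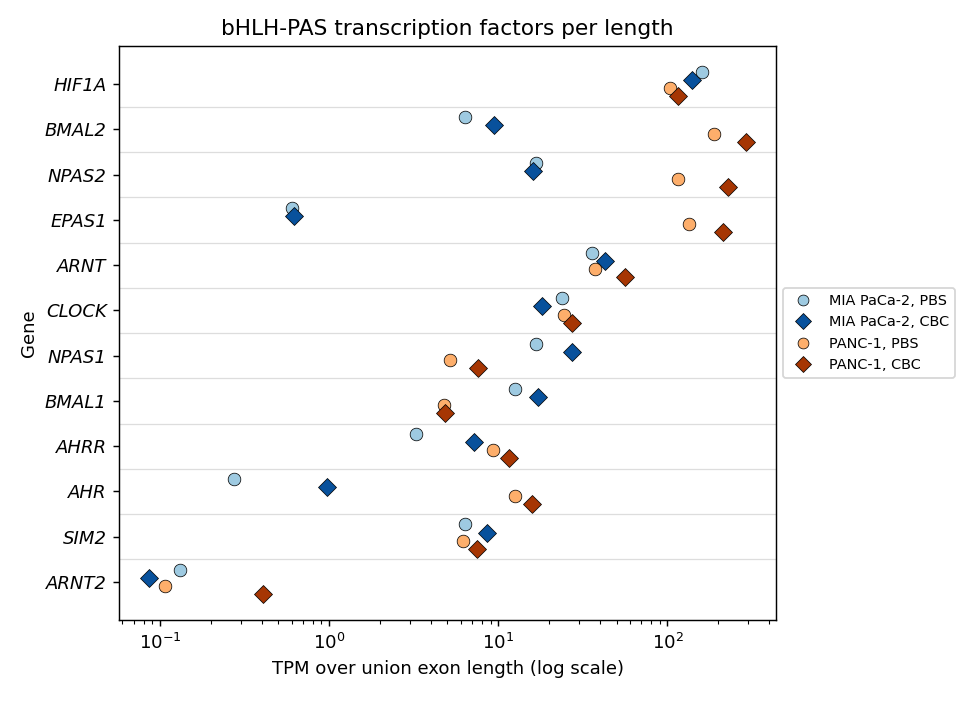
Length-scaled levels (TPM, log axis) of AHR, ARNT, AHRR and the other bHLH-PAS genes with at least 10 counts in 1 library, 1 point per library (circles PBS, diamonds CBC). AHR at 0.274 TPM and EPAS1 at 0.605 TPM in MIA PaCa-2 with PBS lie far to the left of their PANC-1 values of 12.5 and 134 TPM.

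Other genes of the pathway were grouped in 8 lists of 103 genes, of which 32 had under 10 counts in every library. In MIA PaCa-2, 6 of the 62 genes read were higher past 2-fold and 7 lower, with a median log2 fold change of -0.11. In PANC-1, 6 of 65 were higher and 1 was lower, with a median of 0.30. Across both lines 3 of 67 rose and 1 fell by edgeR's quasi-likelihood test. Over all genes read, 11.5% were higher and 8.97% lower past 2-fold in MIA PaCa-2, and 7.71% and 7.03% in PANC-1. Across both lines, 2.26% of all tested genes rose and 2.45% fell. The counts here and in each list below stand beside these shares. With few genes per list, they were not tested against them and do not set a list apart.

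In the receptor complex and its regulators, 14 of 14 genes were read in each line and none was past 2-fold in either. HSP90AA1, the inducible form of the HSP90 chaperone that holds the ligand-free receptor, fell across both lines, with a log2 fold change of -0.77 (SE 0.16, edgeR adjusted p = 0.0361), -0.67 in MIA PaCa-2 and -0.89 in PANC-1. PTGES3, the p23 co-chaperone, had -0.58 and -0.52, and the coactivator NCOA3 had 0.58 and 0.53, with edgeR adjusted p of 0.126 and 0.181 across lines. None of the 8 other bHLH-PAS genes read in each line was past 2-fold or passed across lines. BMAL2 had a log2 fold change of 0.45 in each line, NPAS1 had 0.57 and 0.36, and NPAS2, a partner of the circadian factors, had -0.20 in MIA PaCa-2 and 0.81 in PANC-1.

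Of 14 further AHR target genes, CYP1A2, UGT1A1, GSTA1, GSTA2 and SERPINB2 were at 0 counts in the 4 libraries. Of those read, 2 of 5 were higher past 2-fold in MIA PaCa-2 and 1 of 7 in PANC-1. SLC7A5, a transporter of large neutral amino acids that include tryptophan, rose across both lines by 1.19 on the log2 scale (SE 0.18, edgeR adjusted p = 0.0162). Its CPM went from 481 to 1180 in MIA PaCa-2 and from 295 to 621 in PANC-1. ABCG2, an efflux pump, had 40 counts with CBC in MIA PaCa-2 and a log2 fold change of 1.68 there (0.82 to 3.01), against -0.23 in PANC-1, and the growth factor EREG had 0.49 and 0.65.

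Among 16 genes of kynurenine and tryptophan metabolism, which makes endogenous ligands of the receptor, 9 had under 10 counts in every library. IDO1, IDO2 and TDO2, the enzymes that open the tryptophan ring, had at most 2 counts. Of the 6 read, 1 was higher and 2 were lower past 2-fold in MIA PaCa-2, and 1 was higher in PANC-1. WARS1, the cytoplasmic tryptophanyl-tRNA synthetase, rose across both lines by 1.11 (SE 0.18, edgeR adjusted p = 0.0188), a gene that charges tRNA and makes no kynurenine. KYAT1, a kynurenine aminotransferase, had -1.20 in MIA PaCa-2 and -0.79 in PANC-1, and QPRT, which makes a precursor of NAD, had -1.58 and -0.38, both without passing across lines (edgeR adjusted p of 0.139 and 0.298).

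Of 12 ADP-ribosyltransferases related to TIPARP, 2 of 10 were higher past 2-fold in MIA PaCa-2 and 2 of 11 in PANC-1, with none lower and none passing across lines. PARP12, which like TIPARP carries CCCH zinc fingers and a WWE domain, had 1.66 (1.37 to 1.98) in MIA PaCa-2 and 0.54 in PANC-1. PARP14 had 1.15 and 0.47, and PARP11 had 0.45 and 1.36, with edgeR adjusted p of 0.127 and 0.22. The edgeR adjusted p of PARP12 was 0.129.

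Of 18 other aldehyde dehydrogenases, 1 of 13 was higher and 4 were lower past 2-fold in MIA PaCa-2, and 2 of 13 were higher and 1 was lower in PANC-1. ALDH1L2, a mitochondrial enzyme of folate metabolism, rose across both lines by 3.47 (SE 0.59, edgeR adjusted p = 0.023), from 16 to 97 counts in MIA PaCa-2 and from 15 to 395 in PANC-1. ALDH5A1 had -1.44 and -0.06 and ALDH1B1 had -0.76 and -0.77, with edgeR adjusted p of 0.353 and 0.121. Of 5 genes that pass electrons to P450 enzymes, CYB5A was past 2-fold, at -1.40 in MIA PaCa-2, with -0.52 in PANC-1. POR, the main P450 reductase, had 0.67 and 0.83 (edgeR adjusted p = 0.0765), and CYB5B had -0.58 and -0.82 (edgeR adjusted p = 0.0826). Of 11 other xenobiotic receptors and P450s, 10 had under 10 counts in every library, and RXRA had -0.39 and -0.20.

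**Figure D4:**
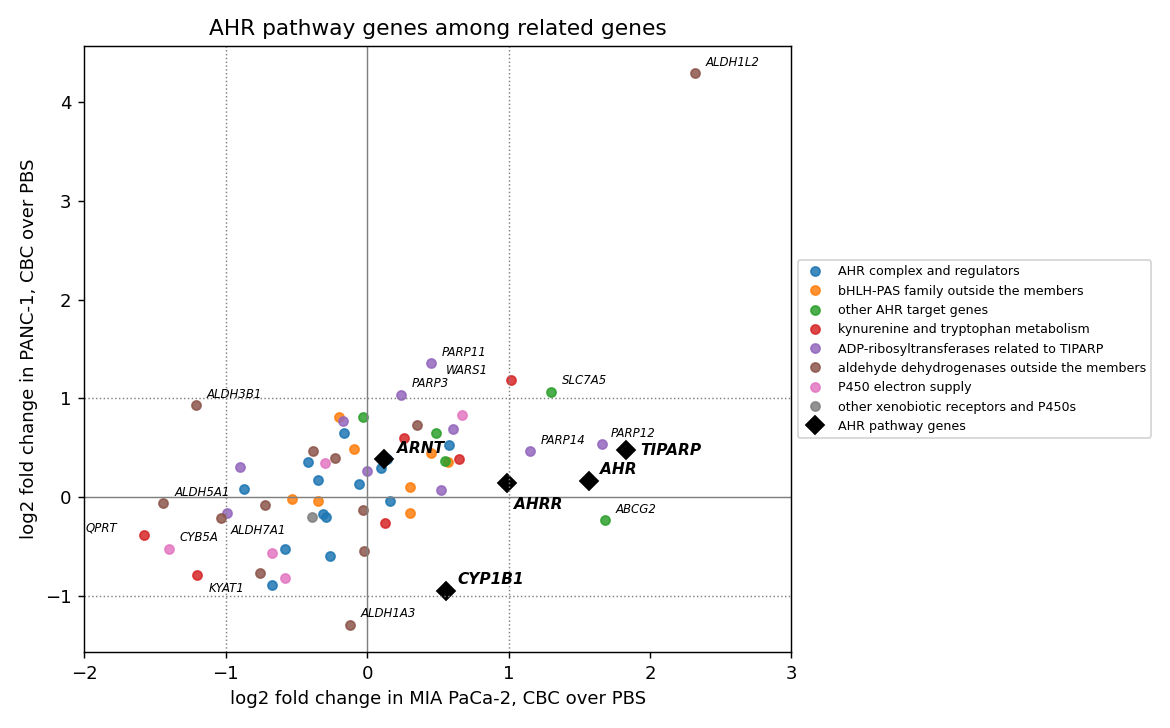
Log2 fold change of CBC over PBS in MIA PaCa-2 (horizontal) against PANC-1 (vertical) for the genes read in both lines, with black diamonds for AHR, ARNT, AHRR, TIPARP and CYP1B1, coloured points for the 8 lists and names for genes past 2-fold. TIPARP, at 1.83 and 0.48, lies near PARP12, at 1.66 and 0.54, while CYP1B1, at 0.56 and -0.95, lies to the lower right.

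For the 5 members read in both lines, the 3 protein-coding genes with the most similar pattern were sought among 9714 genes, as the Euclidean distance between log2 CPM values centred on their mean over the 4 libraries. For TIPARP they were DISP1, NFKBIB and SLC35G2, at distances of 0.161 to 0.236. For AHRR they were TSSC4, RAMAC and MUS81 (0.0434 to 0.149), and for ARNT they were RALGAPA1, RETREG2 and AVEN (0.0315 to 0.0753). AHR had VPS35L, SYNPO and SH3PXD2A at 0.424 to 0.49, and CYP1B1 had FSCN1, CXADR and LAMB1 at 0.462 to 0.526. Among the genes searched, the nearest to AHR and CYP1B1 were thus farther away than those of the former 3. Both had only 13 to 60 counts in the MIA PaCa-2 libraries and differed widely between the lines. The part of this in the distances was not tested. The 4 points share their libraries, and the distances are a description.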

How the data were processed

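RNA from 4 libraries, 1 per line and treatment, was prepared with a directional kit. Per the labels, reads were handled with CASAVA, cutadapt 2.7, STAR, HTSeq and edgeR on GRCh38. The authors deposited raw HTSeq counts per gene, which were used here. Their deposited normalised CPM, a signal here because TMM scaling makes some columns sum past the CPM total, served as an alternative. The counting's strand setting and its rule for reads over several genes, which decide overlapping genes, are not given in the sources used here. Nor is its multi-mapping rule.

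Symbols came from GENCODE 44 and matched 57392 of 58233 identifiers. Library sizes were TMM-scaled with edgeR 4.0.16 (R 4.3.3). Within a line, log2 fold changes used a prior count of 2 and Clopper-Pearson intervals of the count ratio at 95% (scipy 1.17.1). Across lines, genes kept by filterByExpr were fitted by quasi-likelihood with the line as a block, leaving 1 residual degree of freedom. Nothing says that libraries came from separate cultures, so p-values measure only the spread between these samples. Libraries of a line deviated together (correlation 0.923). DESeq2 1.42.0, other scalings, filters and prior counts were alternatives, and the fit was tested on simulated data. Members and lists were chosen with earlier results of these data known. Named list genes were the 3 with the largest mean change per list, plus those called across lines. Motif counts used RefSeq promoter windows.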

Additional observations from a re-analysis of the deposited data

Results flagged for a closer look

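NPAS2 had a log2 fold change with CBC of -0.20 in MIA PaCa-2 (95% counting interval -0.31 to -0.08) and 0.81 in PANC-1 (0.77 to 0.84), opposite ways in the lines. ALDH3B1, an aldehyde dehydrogenase singled out after its values were seen, had -1.21 (-1.49 to -0.95) and 0.93 (0.70 to 1.17) in the same order. With 1 library per condition these differences between lines were not tested.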

How the results depend on the processing

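The count of members past 2-fold stayed within 1.5 times its main value under other TMM groupings, DESeq2 size factors, library totals and other prior counts. From 2 in MIA PaCa-2 it became 1 with deposited CPM and a pseudocount of 1, with 1 CPM asked of both libraries, with 5 CPM asked of 1, and with the counting interval wholly past 2-fold, AHR being the one lost each time. From 1 in PANC-1 it became 0 under the same 4 settings. Asking only that the interval leave out no change, an alternative added after seeing the data, gave 4 in MIA PaCa-2 and 5 in PANC-1, under a rule that most genes with at least 10 counts met. With library totals AHRR also passed 2-fold in MIA PaCa-2, making 3. Intervals wholly past 2-fold left 5 of 13 listed genes in MIA PaCa-2 and 4 of 7 in PANC-1. Across lines, testing without a filter called 1 member, TIPARP (edgeR adjusted p = 0.000354, against 0.074 to 1.0 under the other alternatives), and 11 listed genes in place of 4, while DESeq2 called 9 listed genes. Without the replicate block, which is the line for the treatment comparison, 0 members and 0 listed genes were called across lines. Without the block of the line comparison, which is the treatment, 3 members in place of 5 were called. With no line block, no gene of the table was called across lines, against 771 with it, 1370 by DESeq2 and 2063 without a filter. At an unadjusted edgeR p under 0.05, the members across lines also went from 2 to 0 without the line block. Leaving out MIA PaCa-2 moved the TIPARP log2 fold change from 1.16 to 0.48 and that of AHR from 0.73 to 0.16, and leaving out PANC-1 moved them to 1.83 and 1.57. The motif count rose from 1 to 7 with the core of 5 letters alone. The causes were not tested. Low counts widen the intervals of CYP1A1, of ALDH3A1 and, in MIA PaCa-2, of AHR and CYP1B1.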
